A study of Mus musculus with 9 samples.

Results

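RNA extracted from single mouse oocytes with the Arcturus PicoPure kit was compared with RNA extracted with the Qiagen RNeasy Mini kit. The comparison rests on 6 of the 9 arrays of the study, 3 oocytes for each kit, assigned to a kit by their titles. All oocytes were unfertilized, at metaphase II, and came from females of the ICR strain (an outbred stock) that were 2 months old. These mice were injected with PMSG (10 IU), which ripens follicles, and after 46 hours with hCG (10 IU), which triggers ovulation. Per the labels' protocols, each condition drew on 3 mice that gave 1 to 3 cells each, and some oocytes may share a mother. The p-values therefore describe variation among the particular oocytes measured. Each oocyte was extracted by 1 method, amplified (NuGEN Ovation One-Direct) and hybridized to 1 Affymetrix Mouse Gene 1.0 ST array. The remaining 3 arrays, from oocytes lysed directly in buffer with no column step, served to estimate the spread and as a point of reference.

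Both kits catch RNA on a column from which it is washed and eluted. PicoPure is sold for very small samples such as microdissected cells, and RNeasy Mini for ordinary amounts of tissue or culture. A metaphase II oocyte does not transcribe, so its RNA is the store laid down during growth, dominated by maternal messages for the egg coat, the meiotic spindle and the machinery of the early embryo. The amplification by single primer isothermal amplification copies that store into cDNA before labelling.

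Values are on the log2 scale, so a difference of 1 is a doubling, and differences are PicoPure minus RNeasy throughout. Of 19938 genes, 12 (0.0602%) passed an adjusted p of 0.05 in limma with Benjamini-Hochberg adjustment over all genes. With PicoPure 8 genes (0.0401%) were higher and 4 (0.0201%) were lower. The unadjusted p was under 0.05 for 1591 genes (7.98%), 921 higher and 670 lower. Whatever its size, the difference was positive in 8277 genes (41.5%) and negative in 11655. In each of the 12 called genes the 3 PicoPure values lay entirely above or entirely below the 3 RNeasy values. With 3 arrays a kit this largely follows from passing the threshold and adds no support. Over all genes such separation was found in 6.92% on the higher side and 7.03% on the lower. A gene was taken as above background on an array when it exceeded the 95th percentile of that array's 1246 olfactory, vomeronasal and taste receptor genes, a class that oocytes are not known to use broadly. Of the 12 genes, 11 were above background on all 6 arrays.

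Nicn1, whose product belongs to the tubulin polyglutamylase complex, had the largest difference among the 8 genes higher with PicoPure. Its values were 7.55, 7.88 and 7.71 with RNeasy and 9.57, 9.12 and 9.03 with PicoPure, a difference of 1.52 ± 0.15 (SE) or 2.88-fold (limma adjusted p = 0.0208). Direct lysis averaged 8.23, between the kits and nearer to RNeasy. Exoc1 encodes a subunit of the exocyst, which tethers secretory vesicles to the plasma membrane. It read 9.48, 9.53 and 9.18 with RNeasy and 10.61, 10.59 and 10.61 with PicoPure, a difference of 1.21 ± 0.09 (2.31-fold, limma adjusted p = 0.0163). The PicoPure oocytes hardly differed from one another for this gene.

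Cherp, a nuclear protein found with the U2 snRNP and also named for calcium homeostasis in the endoplasmic reticulum, had 9.14, 9.03 and 8.92 with RNeasy and 10.17, 10.13 and 10.47 with PicoPure. The difference was 1.23 ± 0.11, or 2.34-fold. Ddx39a, a helicase that works in mRNA export, had 8.34, 8.52 and 8.43 against 9.43, 9.36 and 9.33, a difference of 0.95 ± 0.09. For both genes, direct lysis (9.79 and 9.23) lay nearer to PicoPure.

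Mta1, a subunit of the NuRD chromatin remodelling complex, had 8.83, 8.84 and 8.93 with RNeasy and 9.74, 9.75 and 9.81 with PicoPure (difference 0.90 ± 0.07). The plasma membrane calcium pump gene Atp2b3 had 7.95, 8.05 and 7.94 against 8.72, 8.72 and 8.89 (0.80 ± 0.07). Wdr44, whose product binds the recycling endosome GTPase Rab11, had 7.78, 7.80 and 7.87 against 8.75, 8.47 and 8.70 (0.82 ± 0.08). These 3 genes had little spread within either kit beside the gap between the kits. Nfatc2ip, which carries SUMO-like domains, was above background on all 3 PicoPure arrays (7.78, 7.91 and 7.84) and on no RNeasy array (7.06, 6.93 and 6.77). It was at least 1.38-fold higher with PicoPure (limma adjusted p = 0.0422), a bound taken against the background level, and it came closest to the threshold. Its direct lysis mean was 7.06, nearer to RNeasy.

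The 4 genes lower with PicoPure were n-R5s136, Fth1, Ube2b and Mmadhc. For n-R5s136, a nuclear-encoded 5S ribosomal RNA gene, RNeasy gave 10.38, 10.00 and 10.57 and PicoPure 8.27, 8.39 and 8.67. This was the largest difference among the called genes, -1.87 ± 0.17 or 3.66-fold (limma adjusted p = 0.0165). Direct lysis averaged 10.18, close to RNeasy, so here PicoPure was the method that stood apart. The 5S RNA genes lie in repeated copies, and a row for one of them can take signal from others.

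Fth1, the heavy chain of the iron store ferritin, had 11.99, 11.83 and 12.15 with RNeasy and 10.94, 11.14 and 10.92 with PicoPure, a difference of -0.99 ± 0.10 (1.99-fold, limma adjusted p = 0.0208). Ube2b, a ubiquitin-conjugating enzyme, had 11.33, 11.43 and 11.40 against 10.63, 10.63 and 10.60 (-0.76 ± 0.08). Mmadhc, which passes vitamin B12 to its enzymes inside the cell, had 11.77, 11.62 and 11.74 against 11.04, 11.04 and 10.91 (-0.72 ± 0.07). For these 3 genes the direct lysis means of 11.33, 10.79 and 10.93 were nearer to PicoPure. Over the 12 called genes direct lysis lay nearer to PicoPure in 9 and nearer to RNeasy in 3, Nicn1, Nfatc2ip and n-R5s136. The same count was not made over all genes, so whether 9 of 12 is more than usual is not known.

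**Figure D1:**
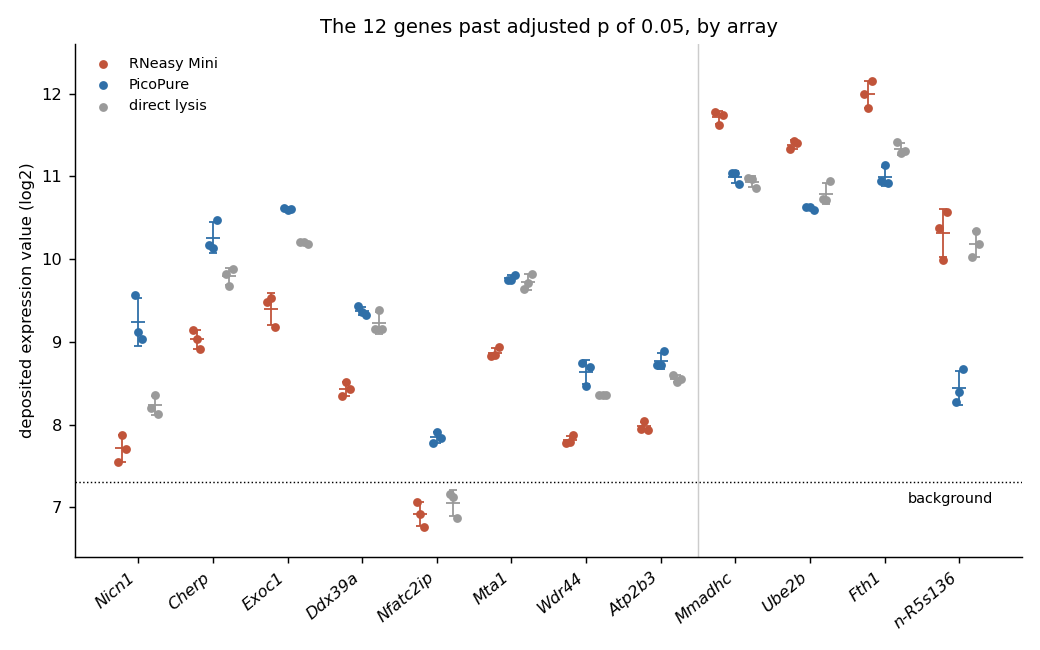
Deposited log2 value (vertical axis) of each of the 12 genes past the threshold on each array, as points, with the mean and SD of the 3 oocytes of each method; the dotted line is the mean background level of the 6 purified arrays (7.31). RNeasy and PicoPure points do not overlap in any of the 12 genes, and n-R5s136 is the one lower gene in which direct lysis sits with RNeasy.

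The number of calls was sensitive to the fit. No gene passed when the spread was estimated from the 6 purified arrays alone (1730 at an unadjusted p under 0.05) or with a trended, robust variance (1595). Leaving out RNeasy replicate 1, PicoPure replicate 2 or PicoPure replicate 3 also left 0 genes, with 1439, 1351 and 1259 at an unadjusted p under 0.05, and leaving out PicoPure replicate 1 left only Strip2, which was not among the 12. Without RNeasy replicate 2 there were 4 genes, of which Exoc1 and n-R5s136 were among the 12, and without RNeasy replicate 3 there were 4, of which Exoc1 and Mta1 were. Without direct lysis replicate 1 the count was 6, with 5 of the 12.

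The partners of the called genes were examined next, to see whether a whole complex differed between the kits. These lists were chosen with results of the comparison known. Of 12 exocyst genes only Exoc1 passed. The median of the 12 was -0.01, near the -0.03 of all genes, and the sign of this list turned under several settings. Exoc3 (8.93, 8.51 and 8.97 with RNeasy, 9.53, 8.40 and 10.01 with PicoPure) and Exoc2 (6.63, 6.88 and 6.75 against 8.39, 7.37 and 6.73) had overlapping groups. Exoc4, Exoc5, Exoc6 and Exoc7 had differences between -0.10 and -0.03.

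Of 15 NuRD genes Mta1 alone passed, 11 were positive, and the median was 0.05. Hdac1, a deacetylase of the complex, had 8.81, 9.06 and 9.10 with RNeasy and 10.17, 9.47 and 9.53 with PicoPure (0.73 ± 0.22, limma adjusted p = 0.456). Gatad2a, with 0.35, and Gatad2b, with 0.23, also had groups that did not overlap. The other metastasis-associated paralogs gave 0.11 for Mta3 and 0.04 for Mta2, which was above background on no array, while the remodelling ATPase Chd4 had 0.10 and the histone chaperones Rbbp4 and Rbbp7 had 0.05 and 0.01.

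Among 5 tubulin polyglutamylase genes Nicn1 stood alone past the threshold, with Lrrc49 at 0.19, Tpgs1 at 0.07, Tpgs2 at -0.10 and Ttll1 at 0.33. Of 9 Rab11 pathway genes Wdr44 was the single call. Rab11a had 11.69, 11.78 and 11.60 with RNeasy and 11.42, 11.17 and 10.99 with PicoPure, the opposite direction (-0.50 ± 0.13, limma adjusted p = 0.357). Close paralogs of other called genes had smaller differences that did not pass. Ddx39b, which shares the export role of Ddx39a, had 0.21, Ube2a, the near twin of Ube2b, had -0.07, and the calcium pumps Atp2b1 and Atp2b2 had 0.30 and -0.05.

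Ferritin and vitamin B12 genes gave the same picture for the lower side. Of 15 iron storage and uptake genes Fth1 was the one that passed. The light chain gene Ftl1 overlapped between kits (6.67, 7.79 and 7.31 against 7.22, 7.69 and 7.29), and Ncoa4, the receptor that delivers ferritin for breakdown, had 0.29. Of 11 vitamin B12 genes Mmadhc was the only one that passed, while the methionine synthase gene Mtr had 8.86, 8.38 and 8.73 with RNeasy and 9.90, 9.83 and 9.38 with PicoPure (1.04 ± 0.27, limma adjusted p = 0.367).

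Larger differences than those of the called genes were found among genes with more spread between oocytes. Snrpd2, a core protein of the spliceosomal snRNPs, had 10.58, 11.37 and 10.50 with RNeasy and 8.58, 6.93 and 7.25 with PicoPure, a difference of -3.23 ± 0.47 (limma adjusted p = 0.0983). Of its 3 PicoPure values only the first was above background, so the size of this difference rests in part on values below it. The gene has 5 rows on the array, and all were negative, from -3.23 to -1.50. Rps9, a protein of the small ribosomal subunit, had 10.46, 10.61 and 11.47 against 7.71, 7.65 and 7.90 (-3.10 ± 0.43, limma adjusted p = 0.0928), and its second row had -1.65. The histidine phosphatase gene Phpt1 had 11.54, 11.15 and 9.71 against 8.42, 7.97 and 8.06 (-2.65 ± 0.43, limma adjusted p = 0.134). None of these 3 passed the threshold. They were picked from genes whose groups do not overlap, so that separation adds no support.

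Just outside the threshold lay Atp5j2, a subunit of the mitochondrial ATP synthase (12.15, 11.96 and 12.08 with RNeasy, 11.53, 11.37 and 11.33 with PicoPure), and Ppib, the cyclophilin of the endoplasmic reticulum often used as a reference gene. Ppib had 9.70, 9.61 and 9.83 against 11.03, 10.85 and 11.01 (1.25 ± 0.16), and both genes had a limma adjusted p of 0.0665. Rps4x, another small-subunit protein, had 11.89, 11.71 and 11.97 against 10.75, 10.47 and 10.55, with differences from -1.49 to -1.18 over its 5 rows (limma adjusted p = 0.0673). The next genes on the higher side were Sptan1 (0.57), Cyb561a3 (0.84), Cd151 (0.89), Pfn1 (0.61), Inpp5d (0.69), Llgl2 (0.43) and Clasp1 (0.75). Sptan1 encodes the spectrin alpha chain, Pfn1 the actin monomer binder profilin and Clasp1 a microtubule plus-end protein. On the lower side they were Miox (-0.47), Mageh1 (-0.62) and the kinase gene Cdk5 (-0.67).

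**Figure D2:**
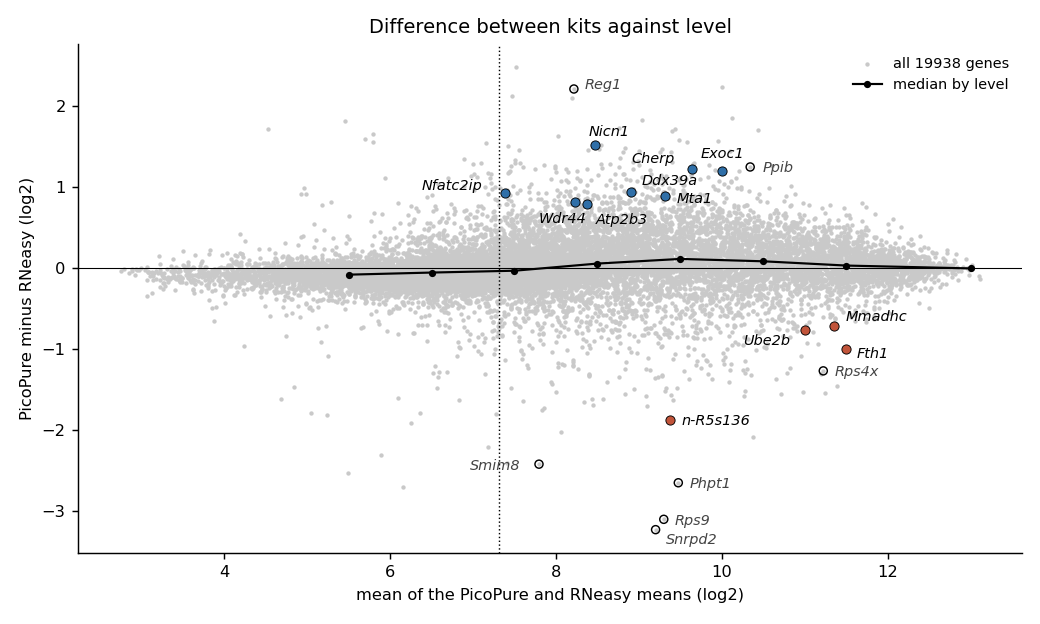
Difference between the kits (PicoPure minus RNeasy, log2) against the mean level of each of 19938 genes; filled points are the 12 called genes, open points are genes named in the text that did not pass, the dotted line is the mean background level and the black line the median difference per level class. The median line is below 0 at low levels and reaches 0.12 between levels of 9 and 10, and Snrpd2, Rps9 and Phpt1 lie below every called gene.

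Beyond single genes, PicoPure and RNeasy values did not overlap in 1379 genes on the higher side (6.92%) and in 1401 on the lower side (7.03%). Among the 10692 genes with a mean above background these were 1262 (11.8%) and 689 (6.44%), and the 12 calls made up 0.112% of them, 0.0748% higher and 0.0374% lower, with 11.7% at an unadjusted p under 0.05. Differences were positive in 53.0% of the genes above background and in 28.3% of the 9246 others. The median difference was 0.01 for genes above background and -0.05 for the others. It moved with level, from -0.08 for the 767 genes below 5 to 0.12 for the 1557 between 9 and 10, and was 0.00 for the 445 genes above 12. A difference over 1 was found in 140 genes on the higher side and 128 on the lower.

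Messages for the protein-making and energy machinery, most of which encode small proteins, had negative median differences, although no member passed the test. Of 62 cytosolic ribosomal protein genes 0 passed, 52 were negative and 10 positive, and the median difference was -0.33 against -0.03 over all genes. The groups did not overlap on the lower side in 17 of them (27.4%, against 7.03% of all genes) and on the higher side in 2 (3.23%, against 6.92%). The list deviated from its mean over the 6 arrays by 0.06, 0.15 and 0.24 on the RNeasy arrays and by -0.09, -0.21 and -0.11 on the PicoPure arrays, so the kits did not overlap. The direct lysis arrays gave -0.01, -0.16 and -0.19, 2 of them within the PicoPure range and 1 between the kits. Small-subunit genes (23) had a median of -0.31 and large-subunit genes (38) of -0.45. Rps10 had 9.11, 9.01 and 9.04 with RNeasy and 8.60, 8.11 and 8.47 with PicoPure. Because the genome holds many pseudogene copies of ribosomal protein genes, a row may also read its copies. The median of the list was -0.24 without RNeasy replicate 3, its weakest value over the arrays left out.

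The nuclear genes of the respiratory chain followed the ribosomal proteins in direction. Of 93 such genes 0 passed, 72 were negative, and the median was -0.22, with 22 not overlapping on the lower side (23.7%, against 7.03% of all genes) and 4 on the higher (4.30%, against 6.92%). The 17 ATP synthase genes had a median of -0.58, and 16 of them were negative. Complex I (43 genes) had -0.25, complex IV (17) -0.21 and complex III (12) -0.13, whereas the 4 genes of complex II, whose subunits also work in the citric acid cycle, had 0.17. Of the 43 complex I genes 10 were positive, among them Ndufa10, with 11.41, 11.12 and 11.38 against 11.70, 11.81 and 11.62. The array deviations of the whole list were 0.09, 0.14 and 0.06 with RNeasy and -0.01, -0.14 and -0.15 with PicoPure, which again did not overlap. The mitochondrial genome itself was represented by COX2 and ND3, with -0.12 and -0.13.

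Mitochondrial ribosomal proteins, the proteasome and histones had smaller medians of the same sign. The 77 mitochondrial ribosomal protein genes had a median of -0.15 with 51 negative, where 11655 of all 19938 genes were negative. Among the 69 with a mean above background 45 were negative, against 5030 of all 10692 such genes. The median of the 77 lay between -0.13 and -0.08 when any 1 of the 6 purified arrays was left out. Among them Mrps18b had 9.35, 9.41 and 10.53 with RNeasy and 8.83, 8.05 and 8.65 with PicoPure, and Mrps25 went the other way with 10.39, 10.09 and 9.95 against 10.75, 10.57 and 10.48. Of 49 proteasome genes 37 were negative (median -0.12), with -0.14 for the 19 genes of the catalytic core and -0.08 for the 20 of the regulatory cap. Of 45 histone genes, which make short messages mostly without a poly(A) tail, 34 were negative (median -0.13), but 17 were above background on no array. Among the 28 with a mean above background 19 were negative (median -0.15). The receptor genes that set the background had a median of -0.11, and its part in the histone list was not tested. H2bc18 had 9.24, 9.01 and 9.70 against 8.03, 7.96 and 7.76 (-1.40 ± 0.23, limma adjusted p = 0.14). No gene of these 3 lists passed.

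The opposite end was taken by genes of very large proteins, such as giant cytoskeletal linkers, dyneins and chromatin enzymes. This list was drawn up after the values of several large genes had been seen, and Sptan1, Sptbn1, Ahctf1, Prpf8 and Dnah10, which prompted it, were left out. Of the 87 measured genes of the list 0 passed and 65 were positive, with a median of 0.15. In 29 of them (33.3%, against 6.92% of all genes) every PicoPure value was above every RNeasy value, and in 0 the reverse was seen. Among the 59 with a mean above background the median was 0.25 and 52 were positive, against 0.01 for all such genes. The array deviations were -0.03, -0.06 and -0.04 with RNeasy and 0.02, 0.07 and 0.04 with PicoPure, and the median of the 87 was 0.10 without RNeasy replicate 1.

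Kmt2d, a histone methyltransferase, had 11.57, 11.41 and 11.08 with RNeasy and 12.14, 12.19 and 11.99 with PicoPure (0.75 ± 0.17). The centrosome scaffold gene Pcnt had 9.73, 9.80 and 9.53 against 10.14, 10.06 and 10.05, and Smg1, a kinase of nonsense-mediated decay, had 10.25, 10.11 and 10.06 against 10.48, 10.73 and 10.79. All 3 had separate groups, with limma adjusted p of 0.301, 0.324 and 0.377. Direct lysis did not line up with one kit for this list, at -0.08, -0.10 and 0.02. Transcript length was not used here, so the contrast between small and very large proteins is one of gene lists only, and its relation to length was not tested.

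**Figure D3:**
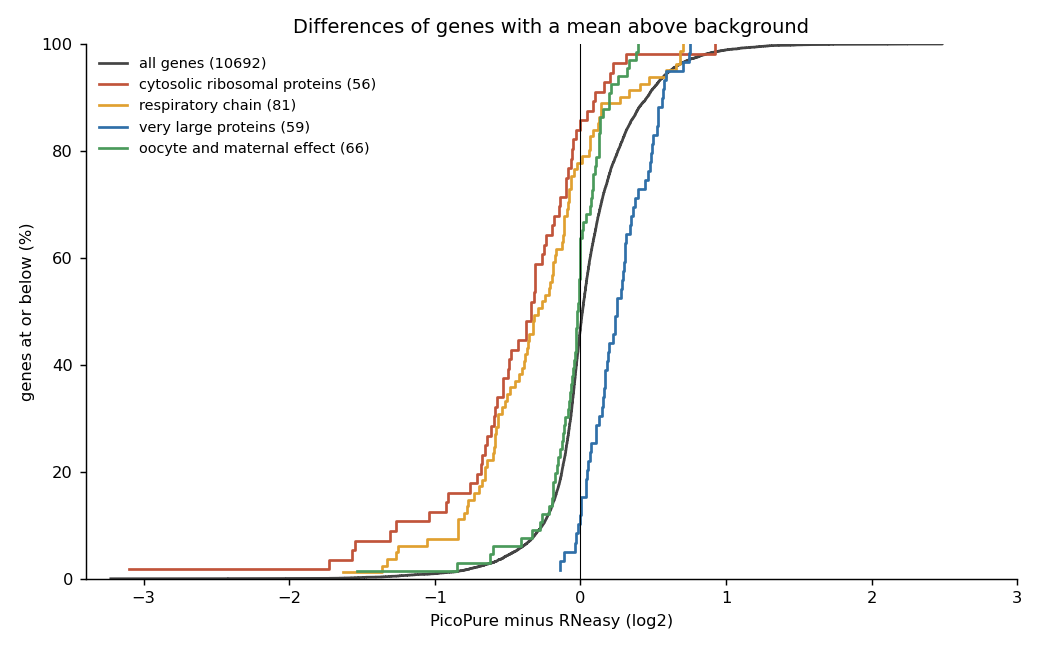
Cumulative share of genes (vertical axis, percent) at or below each difference between the kits (horizontal axis, PicoPure minus RNeasy, log2), for genes with a mean above background. The curve of the cytosolic ribosomal proteins lies left of that of all 10692 genes (median -0.34 against 0.01), and the curve of the very large proteins lies right of it (median 0.25).

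Splicing and mRNA export genes were mixed. Of 102 spliceosome and hnRNP genes Cherp passed, 64 were positive, and the median was 0.07. The small Snrp proteins (10 genes) had a median of -0.17 with 8 negative, and the hnRNP genes (17) a median of 0.14 with 12 positive and 6 that did not overlap on the higher side (against 6.92% of all genes and 11.8% of those above background). Hnrnph1 averaged 11.67 with RNeasy and 11.97 with PicoPure, with groups that did not overlap. Of 22 mRNA export genes Ddx39a passed and the median was 0.11, with Thoc3 at 9.64, 9.49 and 9.48 against 9.90, 9.85 and 9.90. Of 49 translation initiation factor genes none passed, and the median was -0.02. Its members went both ways, with Eif4g3 at 10.61, 10.81 and 10.53 against 11.14, 11.26 and 11.28 and the cap-binding protein gene Eif4e at 12.29, 12.15 and 12.38 against 12.07, 12.03 and 12.02.

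**Figure D4:**
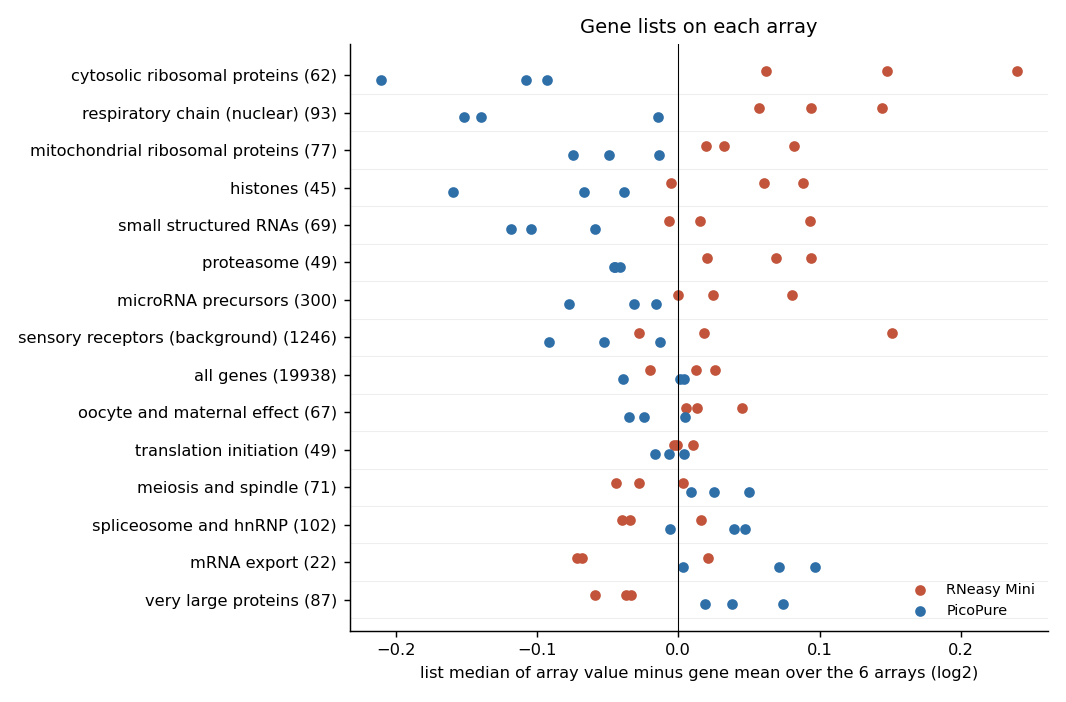
Median deviation of each gene list on each of the 6 purified arrays from the mean of its genes over those arrays (horizontal axis, log2); the number of genes is in brackets. RNeasy and PicoPure points are apart for the cytosolic ribosomal proteins (0.06 to 0.24 against -0.21 to -0.09) and, in the other direction, for the very large proteins, and they overlap for all genes together.

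Of 67 oocyte-specific and maternal effect genes, the maternal store that defines the oocyte, 0 passed, 43 were negative and 24 positive, and the median difference was -0.03, as over all genes. Negative differences were found in 11655 of all 19938 genes and in 5030 of the 10692 above background. The oocyte-secreted growth factor gene Bmp15 had 12.83, 12.84 and 12.84 with RNeasy and 12.82, 12.83 and 12.84 with PicoPure, and Gdf9 had 12.66, 12.69 and 12.70 against 12.68, 12.80 and 12.68. The egg coat genes Zp1, Zp2 and Zp3 had differences of 0.13, -0.15 and 0.10. Npm2, Nlrp5 and Dppa3, maternal effect genes, had -0.01, -0.06 and -0.11, and the decay adaptor gene Btg4 had -0.03. Mos, the kinase that holds the egg at metaphase II, was more variable, with 9.92, 9.70 and 9.92 against 9.92, 10.26 and 10.51. Groups did not overlap on the lower side in 15 of the 67 (22.4%, against 7.03% of all genes) and on the higher side in 6 (8.96%, against 6.92%), and none of these passed. The list has a median level of 12.01, and separate groups were more common at such levels than over all genes. Of the 445 genes above 12, groups were separate in 76 on the lower side and 80 on the higher. Of the 1230 genes between 11 and 12 they were separate in 125 and 246. Among those on the lower side were Uchl1 (12.09, 12.23 and 12.26 against 11.85, 11.72 and 11.79) and Khdc3, a gene of the subcortical maternal complex (10.05, 10.22 and 9.97 against 9.24, 9.66 and 8.77).

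Meiotic and spindle genes (71) had a median of 0.06, with 44 positive and 0 past the threshold. The spindle assembly factor gene Tpx2 had 11.27, 11.17 and 11.22 with RNeasy and 11.61, 11.56 and 11.68 with PicoPure, and the separase gene Espl1 had 8.88, 8.65 and 8.95 against 9.90, 9.70 and 9.69. Birc5, a small protein of the chromosomal passenger complex, went the other way with 12.25, 12.23 and 12.33 against 11.86, 11.82 and 11.97. Genes for the storage, polyadenylation and decay of maternal mRNA (68) had a median of 0.01, with the decapping cofactor gene Patl1 at 9.92, 9.37 and 9.56 against 10.30, 10.20 and 10.54. Of 35 genes of calcium handling and egg activation Atp2b3 was the one that passed, and the median was 0.03. Among reference genes, Actb differed by -0.04, whereas Polr2a had 7.53, 7.84 and 7.57 with RNeasy and 8.31, 8.68 and 8.80 with PicoPure (0.95 ± 0.15, limma adjusted p = 0.117).

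Small structured RNAs were mostly too faint to compare. Of 69 genes of this class 44 were above background on no array and 14 had a mean above it. The median of all 69 was -0.15, with 55 negative and 1 called, n-R5s136, but it was -0.06 without RNeasy replicate 3. Rpph1, the RNA of ribonuclease P, had 9.15, 9.40 and 9.57 with RNeasy and 8.31, 8.40 and 8.47 with PicoPure (-0.98 ± 0.19, limma adjusted p = 0.198). Rn7sk, the 7SK RNA that restrains transcription elongation, had 12.72, 12.81 and 12.70 against 12.33, 12.14 and 12.29, and its second row had -0.73. Of 300 microRNA precursor genes 225 were above background on no array, 0 passed, and the median was -0.09. The receptor genes that set the background had a median of -0.11 themselves (1086 of 1246 negative). Without RNeasy replicate 3 the medians of the microRNA and receptor genes were both -0.06, and the part of the background in either list was not tested. The microRNA rows with the smallest p above background, Mir320, Mir330 and Mir674, had -0.41, -0.33 and -0.21.

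More genes were above background with PicoPure on these arrays. The counts were 11104, 10987 and 11019 with PicoPure (11037 ± 60.5, SD, n = 3) and 10086, 10741 and 9640 with RNeasy (10156 ± 554). The groups did not overlap, and the difference of 881 genes had a two-sided exact permutation p of 0.1, the smallest that 20 assignments allow. The background level itself was 7.41, 7.27 and 7.48 with RNeasy and 7.19, 7.26 and 7.26 with PicoPure, lower with PicoPure by a mean of 0.15. With 1 level for all 6 arrays the difference in detected genes was -146, so with that shared level PicoPure did not have more. RNeasy replicate 3 had the highest background and the fewest genes, and the difference was 623 without it.

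**Figure D5:**
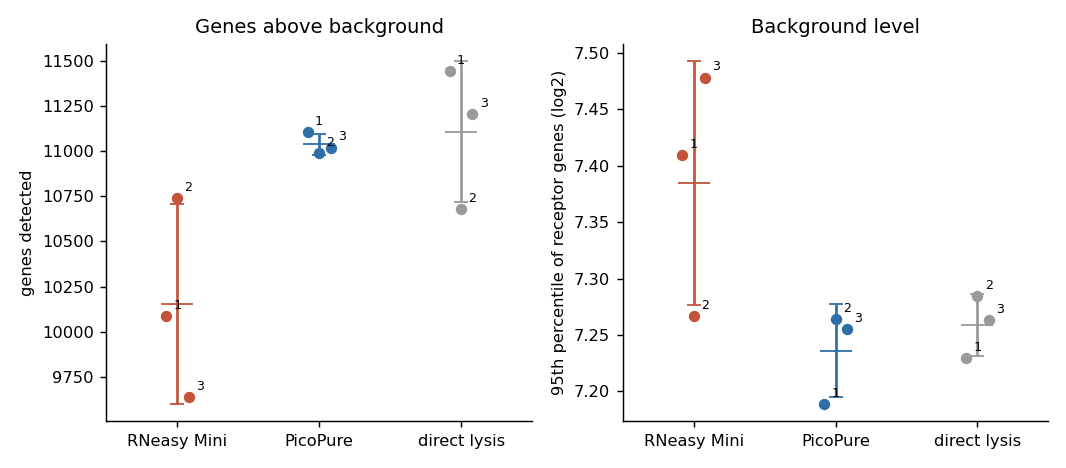
Genes above background (left) and background level, the 95th percentile of the receptor genes in log2 units (right), for each oocyte (points, numbered by replicate) with the mean and SD of each method. The 3 PicoPure arrays (10987 to 11104 genes) lie above all 3 RNeasy arrays (9640 to 10741), and the RNeasy arrays with the fewest genes have the highest background.

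Of the 19938 genes, 8944 were above background on all 6 arrays at once, and 7783 were above it on none of them. A further 129 genes were above it on all 3 PicoPure arrays and no RNeasy array, and 4 showed the reverse. These counts used each array's own level, which averaged 7.24 with PicoPure and 7.38 with RNeasy. They were not repeated with a shared level, so the part of the level in this imbalance was not tested. Reg1 had 6.97, 7.20 and 7.15 with RNeasy and 9.03, 8.35 and 10.60 with PicoPure, at least 3.83-fold higher. Slc25a11, the mitochondrial oxoglutarate carrier, had 6.98, 7.25 and 7.16 against 8.77, 7.93 and 8.38, and the zinc finger gene Zfp947 6.94, 7.01 and 6.96 against 8.60, 7.45 and 8.62. In the other direction Smim8 had 7.80, 9.49 and 9.72 with RNeasy and 6.83, 6.49 and 6.44 with PicoPure, at least 3.41-fold, and Ier3ip1 had 7.73, 7.29 and 9.73 against 6.89, 7.15 and 7.13. Reg1, Slc25a11, Zfp947, Smim8 and Ier3ip1 did not pass the test, with limma adjusted p between 0.314 and 0.646. Reg1, Zfp947, Smim8 and Ier3ip1 varied by over 1 log2 unit between the oocytes of the kit in which they were found.

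Replicate oocytes of a kit correlated at 0.977 to 0.981 over all genes with PicoPure and at 0.969 to 0.978 with RNeasy, and pairs across kits at 0.965 to 0.979 (Pearson, across genes, which are not independent replicates). The median SD over the 3 oocytes was 0.108 with PicoPure and 0.126 with RNeasy, but leaving out RNeasy replicate 2 or 3 turned the difference from 0.0173 to -0.0178 and -0.0160. Which kit gave the tighter replicates was therefore not settled with 3 oocytes each.

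The arrays carried the markers of oocytes and little of other cells. All 9 oocyte markers were above background on all 6 arrays, and 0 of them passed the test. Of 10 measured cumulus and granulosa cell markers Foxl2 alone exceeded background on each of the 6 arrays and 5 exceeded it nowhere, and the sum of the log2 values of the 36 genes of the wider list ran from 257 to 265 with RNeasy and from 256 to 259 with PicoPure. RNeasy replicate 3 read higher for Tnfaip6 (8.39, against 6.34 to 6.85 on the other 5 arrays), Inhba (8.47) and Ptgs2 (7.56), genes of the expanding cumulus. Of 5 white blood cell markers 4 were above background on no array, and Cd3e was above it on all 6. The 1 measured red blood cell marker was above it on none, and of 3 oviduct markers Pax8 was above it on 5 of the 6 arrays. The part of these cells in the differences between kits was not tested.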

How the data were processed

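Per the labels and the platform, the authors hybridized 9 arrays, 3 for each preparation method. The deposited values are log2 expression levels, 1 for each of 35556 rows on each array (0 missing). The submitters' processing notes name GCRMA, GCOS and Affymetrix Expression Console, with no version. The log2 scale was read from the values, which ran from 2.41 to 13.90, and no build is given in the sources used here. Background correction and normalization were the authors' and could not be repeated.

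Rows with 1 gene symbol (21789) were kept, with the row of highest mean over the 9 arrays for the 999 genes with several, which left 19938 genes. Of the rows, 21698 matched RefSeq genes (GRCm38.p6). No filter on level was applied. limma 3.58.1 in R 4.3.3 (lmFit, eBayes) was fitted to all 9 arrays in 3 groups (6 residual degrees of freedom), with two-sided p-values adjusted over the 19938 genes by Benjamini-Hochberg. A fold against a kit with no array above background is a bound, taken against the background level. On data made with known differences, 72% of genes changed by 1 log2 unit and 91% of those changed by 2 were recovered, with 10 false calls. The noise there was independent and normal, the changed genes were picked at random, and no effect of array or background was added. In the deposited values 140 genes were higher and 128 lower by over 1. Of these only Nicn1, Cherp, Exoc1 and n-R5s136 were called, so the 72% is not the share found here. Precision is limited by the number of arrays.

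The 32 gene lists, and the comparison itself, were chosen with earlier results of these data known, 7 of them for genes already seen to differ. They were described by counts and medians and given no test. Named genes were every called gene, the 8 in each direction next by p with groups that do not overlap, up to 3 members of each list by p, relatives of called genes, a fixed oocyte panel, and, among genes above background with 1 kit alone, the 3 that differed most each way. Dnajc13, Strip2, and the large genes left out of their list were chosen after their values were seen. Alternatives were the purified arrays alone, a replicate block, median centring, quantile normalization, values raised to background, a filter on level (above background on 3 of 6 arrays), other choices of row, a trended robust variance and each array left out. The labels do not say whether replicate numbers pair the oocytes, and the main fit did not pair them.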

Additional observations from a re-analysis of the deposited data

Results flagged for a closer look

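The rows of the table that have no gene symbol, 12146 in all, stand outside the comparison of genes. In the fit over all rows, 9 of 21789 rows with 1 symbol passed the threshold as higher with PicoPure and 4 as lower. Of the 1621 rows with several symbols 0 passed, and of the 12146 with no symbol 5 passed as higher and 9 as lower. In the 4 described here the dimmer kit was below the background level on all 3 of its arrays, so the difference of the deposited values is given as it stands, and the fold is a lower bound against the background level. Row 10339415 read 10.70, 10.79 and 11.16 with RNeasy, 3.90, 4.50 and 4.23 with PicoPure and 3.63, 3.44 and 4.25 with direct lysis. The deposited values differed by -6.67 (limma adjusted p over all rows = 0.000114), and the row was at least 12.5-fold lower with PicoPure. Row 10344201 had 11.67, 10.63 and 11.48 with RNeasy and 5.14, 4.60 and 5.22 with PicoPure, a difference of -6.27 (limma adjusted p = 0.0131), and was at least 16.3-fold lower.

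In the other direction row 10340025 had 6.10, 7.01 and 5.89 with RNeasy and 11.30, 11.31 and 11.64 with PicoPure (5.08), with 9.86, 9.80 and 7.59 with direct lysis. PicoPure exceeded RNeasy at least 16.4-fold there. Row 10342222 averaged 6.17 with RNeasy and 10.82 with PicoPure (4.65), with 9.88, 8.83 and 10.91 with direct lysis, and was at least 10.8-fold higher. These 4 were singled out after their values were seen, as those with the largest differences in each direction among the rows that passed. What these rows measure is not named in the tables used here.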

How the results depend on the processing

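The 12 calls became 0 with the 6 purified arrays alone, 0 with the replicate block and 0 with a trended robust variance. Unadjusted p-values under 0.05 numbered 1730, 1549 and 1595 there. Leaving out 1 array gave 0 to 15 calls. Under quantile normalization 6 genes were higher and 5 lower, in place of 8 and 4. Replicate numbers are shared between the kits, and the labels do not say whether they pair the oocytes. The correlations of deviations for same-numbered oocytes were -0.067, -0.0888 and 0.0605. Of the 3 PicoPure oocytes 1 correlated best with its own number. With 3 oocytes a kit these values cannot decide whether the numbers pair. Over 18 alternatives the call was lost least often for Exoc1 (7) and most often for Nfatc2ip (14). Of 34 genes followed through these settings 0 changed direction. All 34 had groups that did not overlap, so leaving out an array could not turn them, and the count adds no support. For the difference in median SD (0.0173), raising values to background gave 0.0621 and leaving out 1 array -0.0178 to 0.0532. For the difference in detected genes (881), 1 shared level gave -146 and leaving out 1 array 623 to 1174. A level at each array's median gene gave 0.667, but it fixes the number of genes on every array by its construction and says nothing about the difference. Raising values to background moved the median of all genes from -0.03 to -0.15, the difference between the background levels themselves. The ribosomal protein median ran from -0.39 to -0.24 over all settings and that of the very large proteins from 0.10 to 0.24. The medians of the lists for exocyst, iron, oviduct, vitamin B12, maternal mRNA, calcium, Rab11, SUMO and zygotic activation genes changed sign in at least 1 setting. The cause of these changes was not tested. Of the microRNA genes 225 of 300, and of the structured RNA genes 44 of 69, were above background on no array.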

Other observations

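Dnajc13, whose product works in sorting on early endosomes, has 15 rows on this array, and they disagreed. In the row with the highest mean the difference was 0.13 ± 0.13 (SE), with 12.48, 12.58 and 12.08 with RNeasy and 12.52, 12.48 and 12.53 with PicoPure. Another row of the gene had 9.94, 10.39 and 9.87 against 11.47, 11.88 and 11.93, a difference of 1.69 ± 0.20 (limma adjusted p over all rows = 0.0475), and direct lysis gave 11.87, 11.53 and 11.37 there. In all, 3 of the 15 rows differed by over 1 log2 unit, with 1.54, 1.69 and 1.80, while the other 12 lay between -0.12 and 0.48. The median of the 15 rows was 0.13.

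Genes of immediate early and heat shock responses (34) had a median of -0.04 and none passed. Hspa8, the constitutive heat shock chaperone, had 12.62, 12.62 and 12.69 with RNeasy and 12.37, 12.36 and 12.46 with PicoPure, and Egr1 had 8.08, 8.27 and 7.84 against 8.32, 8.36 and 8.66. Of 21 oviduct genes 0 passed, 12 were positive and 9 negative, and the median was 0.01. The estrogen receptor gene Esr1, from that list, had 8.97, 8.82 and 8.99 against 9.52, 9.68 and 9.81 (0.74 ± 0.20, limma adjusted p = 0.371), and the cadherin gene Cdh1 had 11.46, 11.53 and 11.32 against 11.75, 11.72 and 11.72. Krt18 of the same list went the other way (-0.27), and it was above background on 1 RNeasy array and 0 PicoPure arrays. Hspa8, Egr1, Esr1 and Cdh1 had groups that did not overlap, but they were named for a small p in their lists, so this adds no support. Groups were separate on the higher side in 2 of the 34 immediate early and heat shock genes and on the lower side in 7. In the oviduct list they were separate in 2 on each side. Over all genes the shares were 6.92% and 7.03%. Of 15 genes of zygotic genome activation 10 were above background on no array, and the median was -0.11.

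Within that list Tdpoz2 and Usp17lc overlapped between the kits, with -0.37 and -0.17. Of 137 keratin, skin and milk protein genes 0 passed, and the median was -0.08, between that of all genes and that of the receptor genes.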
